A study of Homo sapiens with 8 samples.

Results

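Solute carrier (SLC) genes encode the membrane proteins that move amino acids, sugars, nucleotides, vitamins, metals and ions across cellular membranes. Their behaviour in Ago2-RIP-Chip data of ST486 cells was described from 170 probes of 140 SLC genes, out of the 14453 probes for which the authors deposited normalized values. Members were the non-control probes in that set whose RefSeq identifier maps to a symbol of SLC, a number and a letter. The array holds 510 probes of 359 such genes. Thus 33.3% of its SLC probes were members, and of all 41000 non-control probes 35.3% were in the set. Of the other 340 SLC probes, 271 were well above background in fewer than 4 of the 8 channels and 218 of these in 0. A further 55 were detected in at least 4 channels but differed by more than 2-fold between the labellings of a sample, and 14 passed both criteria as recomputed here but had no deposited value. The symbols of 5 member probes carry further letters after the name of a carrier and stand for other proteins, which are not carriers. These are the 3 probes of SLC2A4RG, a transcription factor, and 1 probe each of SLC4A1AP and SLC7A6OS.

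ST486 is an established Burkitt lymphoma (BL) cell line. The cells had been transduced with the retroviral vector MXW-PGK-IRES-GFP, either empty (EV-ST486) or carrying miR-155 (miR-155-ST486), and GFP+ cells had been sorted, so that both groups carry a GFP vector and differ in the miR-155 insert. From each of the 2 cell populations RNA was taken from the total (T) lysate and from the material immunoprecipitated (IP) with an antibody against Ago2, which gives 4 RNA samples and n = 1 per condition. Every RNA sample was labelled with Cy3 and with Cy5, and on each of 4 arrays the IP RNA was hybridized against the T RNA of that population, in both dye orientations. The labellings are technical repeats. No test between conditions was possible, no p-value is given, and with 4 arrays every value is of limited precision. The arrays of the vectors lie on separate slides, so slide and vector cannot be told apart, whereas IP and T RNA of one vector share their arrays. RNA from an IP with a control antibody was not analysed here, and an IP/T ratio therefore includes any RNA held by beads or antibody.

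Between 14094 and 22161 of the 41000 probes were detected per channel, with more probes in Cy3 than in Cy5 in each of the 4 samples. Of the B-cell markers given here, MS4A1, CD79A and CD79B were detected in all 8 channels, CD22 in 7 and PAX5 in 0. The germinal centre marker MME and the BL oncogene MYC were also detected in all 8, and BCL6 had no matched probe. Of 4 T-cell, 3 myeloid and 3 epithelial markers, CD8A and KRT8 were detected in all 8 channels, CD14 in 5, KRT18 in 4 and CD3D, CD3E, CD3G, LYZ, ITGAM and EPCAM in 0. Their part in the SLC values was not tested. Among the members, 145 probes were detected in all 8 channels. The other 25 were detected in only 1 of the 2 labellings of at least 1 sample, and 0 were undetected in both labellings of a sample.

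Ago2 is the protein that carries miRNAs and holds them on partly complementary transcripts, so a transcript that is taken up by Ago2 is richer in the IP fraction than in total RNA. The miRNA pairs with its targets mainly through its seed, bases 2 to 8 from its 5′ end. SLC carriers sit in the plasma membrane, the lysosome, the Golgi apparatus and, as the SLC25 family, in the inner mitochondrial membrane. Lymphoma cells rely on several of them for glutamine, leucine, glucose and lactate transport. The miRNA that differs between the groups, miR-155, is processed into a 5p and a 3p strand, and both RefSeq mature sequences are shown because a transcript that gains Ago2 binding with miR-155 would be read against their seeds. They lie on the plus strand of chromosome 21 (build GRCh38.p14), the 5p strand at chr21:25573983-25574006 and the 3p strand at chr21:25574022-25574043, and capitals mark the seed.
hsa-miR-155-5p: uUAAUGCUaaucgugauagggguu
hsa-miR-155-3p: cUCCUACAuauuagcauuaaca
The sites complementary to these seeds read AGCATTA for miR-155-5p and TGTAGGA for miR-155-3p in the sense strand of a transcript. SLC transcripts were not searched for them here.

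The first question was which SLC transcripts were taken up in the Ago2-IP fraction. Signals are given as log2 of the quantile-normalized intensity, in pairs of the Cy3 and the Cy5 labelling. The IP/T ratio is the fold between the mean IP and mean T signals. Ratios by dye orientation are given for the arrays with IP RNA in Cy5 first and those with IP RNA in Cy3 second. An IP/T ratio of at least 2 served as the threshold for enrichment and a ratio of at most 0.5 as that for depletion. In EV-ST486 cells 32 of the 170 SLC probes (18.8%) were at least 2-fold enriched, against 12.5% of all 14453 probes. In miR-155-ST486 cells 33 probes (19.4%) were enriched, against 12.6%. At most 0.5 were 13 SLC probes in EV-ST486 cells, against 9.91% of all probes, and 11 in miR-155-ST486 cells, against 9.82%. The share of enriched SLC probes thus lay above, and that of depleted ones (7.65% and 6.47%) below, the share of all probes, and these differences were not tested. The threshold of 2 was met in each dye orientation by 22 probes in EV-ST486 cells (12.9%, against 9.78% of all probes) and 26 in miR-155-ST486 cells (15.3%, against 10.9%). An alternative background correction, normexp, which models the background of each spot, was run with quantile normalization and with loess. Under both, 16 of the 32 and 20 of the 33 enriched probes stayed at or above 2, and 4 of the 13 and 3 of the 11 depleted probes stayed at or below 0.5. With normexp and loess 2.35% of the members were depleted in EV-ST486 cells, against 2.37% of all probes, so that these shares were nearly equal. In miR-155-ST486 cells they were 1.765% and 2.86%. Normexp with quantile normalization gave 2.35% against 3.89% with EV and 2.94% against 3.99% with miR-155.

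Enriched in both vectors were 27 probes of 23 genes (15.9% of the members, against 10.7% of all probes), and 22 of them were detected in all 8 channels. A further 5 probes passed the threshold in EV-ST486 cells alone and 6 in miR-155-ST486 cells alone. Of all 14453 probes, 1802 passed it in EV-ST486 cells, 1828 in miR-155-ST486 cells and 1549 in both. Between 0.5 and 2 in both vectors lay 116 of the 170 SLC probes, for which the share of all probes is not given here. The median IP/T ratio of the members was 1.01 in EV-ST486 cells and 0.997 in miR-155-ST486 cells, against 0.900 and 0.887 for all probes. Ratios ranged from 0.327 to 9.38 in EV-ST486 cells and from 0.343 to 8.16 in miR-155-ST486 cells. Across the 170 probes the log2 IP/T ratios of the vectors correlated with r = 0.945, and across all probes with r = 0.941. Probes are not independent replicates, and several share a gene. The median fold between the dye orientations of a member was 1.33 in EV-ST486 cells and 1.24 in miR-155-ST486 cells.

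**Figure D1:**
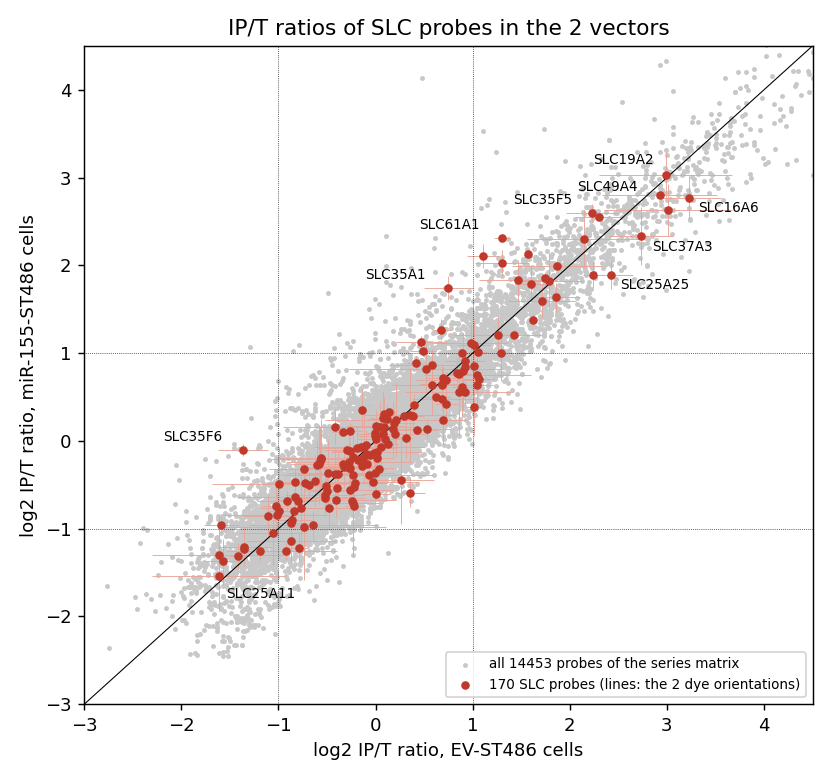
Log2 IP/T ratio in EV-ST486 cells (x axis) against that in miR-155-ST486 cells (y axis) for the 170 SLC probes (red, mean of the labellings, with lines to the values of the dye orientations) over all 14453 probes (grey, of which 40 lie beyond the axes). Dotted lines mark 2-fold and the solid line marks equal ratios. The SLC probes follow the diagonal from SLC25A11 to SLC16A6 and SLC19A2, and SLC61A1, SLC35A1 and SLC35F6 lie above it.

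Enrichment of at least 4-fold in either vector was found for 14 probes of 12 genes (8.24% of the members, against 5.45% of all probes), and 8 probes of 7 genes had it in both. The highest ratios in EV-ST486 cells belonged to SLC16A6, a member of the monocarboxylate transporter family (also MCT7). The log2 signal of its probe A_23_P152791 was 6.28 and 6.31 in the EV T, 9.21 and 9.84 in the EV IP, 6.34 and 6.58 in the miR-155 T and 9.11 and 9.36 in the miR-155 IP fraction. Both IP fractions were thus far above both T fractions. The vectors overlapped in the IP fraction, while in the T fraction both miR-155 channels were slightly above both EV channels. This gives IP/T ratios of 9.38 (11.8 and 7.45) with EV and 6.82 (8.09 and 5.75) with miR-155. Its second probe, A_24_P731648, had ratios of 8.07 (12.7 and 5.12) and 6.21 (7.62 and 5.06). Each SLC16A6 probe was detected in only 1 of the 2 EV T labellings. With normexp and loess their EV ratios were 1.95 and 1.72, below the threshold of 2, and with normexp and quantile normalization their miR-155 ratios were 2.30 and 1.95.

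SLC19A2 imports thiamine, and its probe had the highest ratio of the members in miR-155-ST486 cells. Its log2 signal was 6.34 and 7.17 in EV T, 9.48 and 10.01 in EV IP, 6.66 and 7.20 in miR-155 T and 9.97 and 9.95 in miR-155 IP RNA. The 4 IP channels were above the 4 T channels. IP/T ratios were 7.93 (12.7 and 4.94) with EV and 8.16 (9.76 and 6.82) with miR-155, with 2.12 as the lowest value of the former under the alternatives computed. SLC49A4 (also DIRC2), a lysosomal membrane protein, behaved alike with log2 signals of 6.34 and 7.14, 9.48 and 9.85, 7.08 and 7.09, and 9.87 and 9.92 in the same order. Its ratios were 7.61 (11.5 and 5.05) and 6.99 (7.14 and 6.84), and the first was 1.99 with normexp and loess. For both genes the dye orientations in EV-ST486 cells were further apart than the vectors.

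SLC37A3 belongs to the sugar-phosphate exchanger family. Its log2 signal was 8.23 and 8.41 in EV T, 10.82 and 11.29 in EV IP, 8.49 and 8.96 in miR-155 T and 10.97 and 11.15 in miR-155 IP RNA. IP and T channels did not overlap, and the ratios were 6.67 (8.35 and 5.32) and 5.04 (6.32 and 4.02). The SLC35F5 probe had IP/T ratios of 4.69 (5.66 and 3.89) and 6.06 (6.50 and 5.65). SLC29A3 (ENT3), a nucleoside transporter of lysosomes, had ratios of 4.73 (5.10 and 4.38) and 3.72 (4.15 and 3.34). With normexp these genes kept a ratio above 2 in both vectors, with lowest values of 2.93 for SLC37A3, 2.20 for SLC35F5 and 2.02 for SLC29A3.

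**Figure D2:**
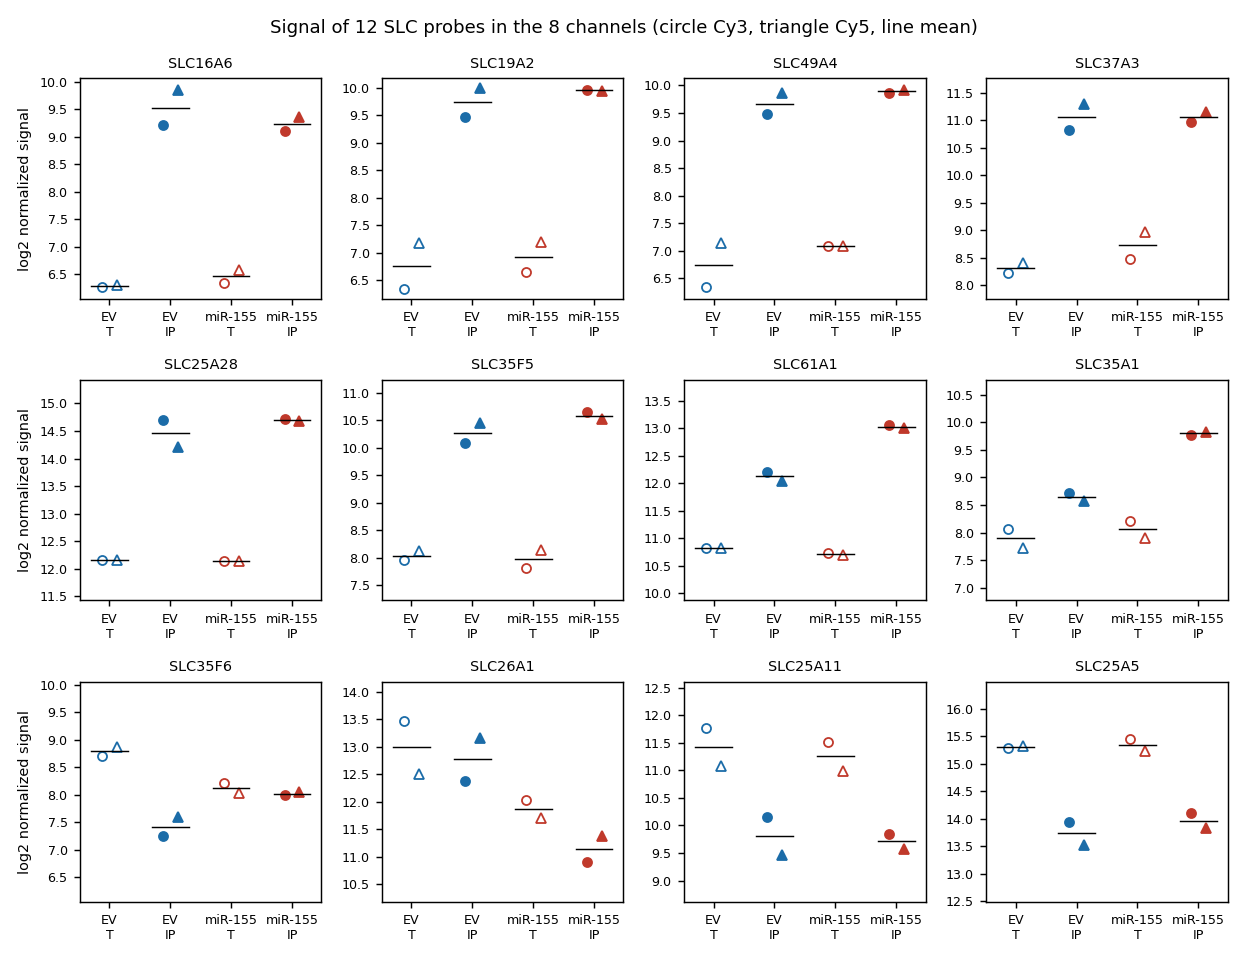
Log2 normalized signal (y axis) of 12 SLC probes in the 4 RNA samples (x axis), with circles for Cy3, triangles for Cy5, open symbols for T and filled symbols for IP RNA, blue for EV-ST486, red for miR-155-ST486 and a line for the mean of the 2 labellings. The y axis spans the same width in every panel but starts at a level of its own, since levels of different probes were not compared. The probes from SLC16A6 to SLC35A1 are higher in both IP fractions, SLC25A11 and SLC25A5 are lower in both, and for SLC61A1 and SLC35A1 the miR-155 IP fraction is the highest.

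Metal and heme transporters counted 20 probes of 17 genes, of which 6 probes of 5 genes were enriched in both vectors and 0 depleted in either. Of all probes 10.7% were enriched in both vectors, and 9.91% (EV) and 9.82% (miR-155) were depleted. Counts in this and the other classes are to be read against these shares, and no class was tested. The median IP/T ratio of the metal and heme probes was 1.14 in EV-ST486 cells and 1.04 in miR-155-ST486 cells. SLC11A2 (DMT1), the importer of ferrous iron, was measured by a pair of probes. Probe A_24_P381494 had log2 signals of 6.66 and 7.59 in EV T, 9.15 and 9.40 in EV IP, 6.95 and 7.39 in miR-155 T and 9.36 and 9.58 in miR-155 IP RNA. Its IP channels lay above its T channels in either vector, with ratios of 4.44 (6.70 and 2.94) and 4.93 (6.19 and 3.93). The other probe, A_23_P139820, had ratios of 3.45 (4.39 and 2.71) and 3.53 (4.40 and 2.84) and was detected in 1 of the 2 EV T labellings. With normexp and loess the EV ratios of the SLC11A2 probes were 1.51 and 1.30 and their miR-155 ratios 2.18 and 1.75, so that 1 of the 4 values remained above 2. SLC48A1 (HRG1), which moves heme out of endolysosomes, had ratios of 2.98 (2.92 and 3.04) and 4.39 (4.51 and 4.27). The log2 signals were 10.78 and 10.91 in EV IP and 11.09 and 11.11 in miR-155 IP RNA, and the mean of the labellings was 9.27 in EV T and 8.97 in miR-155 T RNA. The channels of the vectors did not overlap in either fraction. The zinc importer SLC39A4 (2.77 in EV-ST486 cells and 3.56 in miR-155-ST486 cells), the Golgi zinc transporter SLC30A7 (2.45 and 2.01) and the copper importer SLC31A1 (2.02 and 2.14) were also enriched. With normexp and loess SLC39A4 had 2.58 and 3.38, whereas SLC30A7 (1.25 and 1.43) and SLC31A1 (1.12 and 1.45) fell below the threshold. The other ZIP zinc transporters of the SLC39 family were not enriched in either vector, with ratios from 0.672 for a probe of SLC39A3 to 1.35 for SLC39A13, both in EV-ST486 cells.

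Mitochondrial carriers of the SLC25 family were the largest class, with 38 probes of 31 genes, and they held the most depleted probes. Their median IP/T ratio was 1.00 in EV-ST486 cells and 1.06 in miR-155-ST486 cells. Enriched were 5 of the 38 probes in EV-ST486 cells and 7 in miR-155-ST486 cells, against 12.5% and 12.6% of all probes. Depleted were 9 and 8 of the 38, to be read against 9.91% and 9.82% of all probes. Probes of a gene are not independent, and several of the depleted ones detect the same gene, SLC25A5. Depleted in both vectors were 8 member probes of 6 genes (4.71%, against 6.70% of all probes). Of these, 7 were SLC25 probes, and the eighth detects SLC7A7, an exchanger of cationic and neutral amino acids. Under both normexp settings 3 of the 8, a pair of SLC25A5 probes and that of SLC25A6, stayed at or below 0.5 in both vectors. At the high end stood SLC25A28 (mitoferrin-2), which carries iron into mitochondria. Its probe A_24_P918397 had log2 signals of 12.16 and 12.16 in EV T, 14.70 and 14.22 in EV IP, 12.14 and 12.14 in miR-155 T and 14.72 and 14.67 in miR-155 IP RNA. The T channels were nearly equal and all IP channels were higher. The ratios were 4.93 (4.17 and 5.82) and 5.88 (5.78 and 5.97), and its second probe had 3.64 (2.64 and 5.02) and 3.98 (3.91 and 4.04). SLC25A25, a carrier of ATP-Mg and phosphate, had ratios of 5.38 (6.28 and 4.62) and 3.71 (4.16 and 3.31). The branched-chain amino acid carrier SLC25A44 had 3.36 and 3.61, and the glutamate carrier SLC25A22 had 2.40 and 2.30.

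At the low end stood SLC25A11, the exchanger of oxoglutarate and malate. Its log2 signal was 11.76 and 11.08 in EV T, 10.15 and 9.46 in EV IP, 11.52 and 10.99 in miR-155 T and 9.84 and 9.58 in miR-155 IP RNA. IP channels were below T channels in both vectors, with IP/T ratios of 0.327 (0.203 and 0.525) with EV and 0.343 (0.261 and 0.450) with miR-155. With normexp and loess the ratios of SLC25A11 were 0.618 and 0.515, above the threshold of depletion. The ADP/ATP translocases, which exchange ATP for ADP across the inner membrane, were low throughout. SLC25A5 (ANT2) was measured by 4 probes with IP/T ratios from 0.338 to 0.550 in EV-ST486 cells and from 0.386 to 0.535 in miR-155-ST486 cells. Probe A_24_P182182, the lowest of them, had log2 signals of 15.28 and 15.32 in EV T, 13.94 and 13.53 in EV IP, 15.45 and 15.23 in miR-155 T and 14.11 and 13.82 in miR-155 IP RNA. SLC25A6 (ANT3) had ratios of 0.392 (0.325 and 0.473) and 0.434 (0.372 and 0.506), and SLC25A4 (ANT1) had 0.438 (0.344 and 0.557) and 0.419 (0.387 and 0.454). Normexp with loess gave 0.391 and 0.452 for SLC25A6 and 0.639 and 0.514 for SLC25A4, so that the latter was no longer past the threshold. The translocases resemble each other in sequence, and hybridization of one to the probe of another could not be checked because probe sequences were not used here.

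Other carriers of this class that lay at or near 0.5 included SLC25A39 (0.493 and 0.596), which imports glutathione, the citrate carrier SLC25A1 (0.546 and 0.522), the S-adenosylmethionine carrier SLC25A26 (0.528 and 0.420) and the NAD carrier SLC25A51 (0.557 and 0.575). With normexp and loess all were above 0.5, at 0.6305 and 0.708, 0.813 and 0.638, 0.946 and 0.765, and 0.813 and 0.839 in this order. SLC25A51 was detected in 1 of the 2 miR-155 IP labellings. The phosphate carrier SLC25A3 had ratios of 1.23 and 1.22. The list of 12 probes for mitochondrial carriers outside the SLC names (MTCH, MPC, SFXN and UCP genes) had medians of 0.984 and 0.930, with 1 probe enriched in EV-ST486 cells, 0 in miR-155-ST486 cells and 1 depleted in each.

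**Figure D3:**
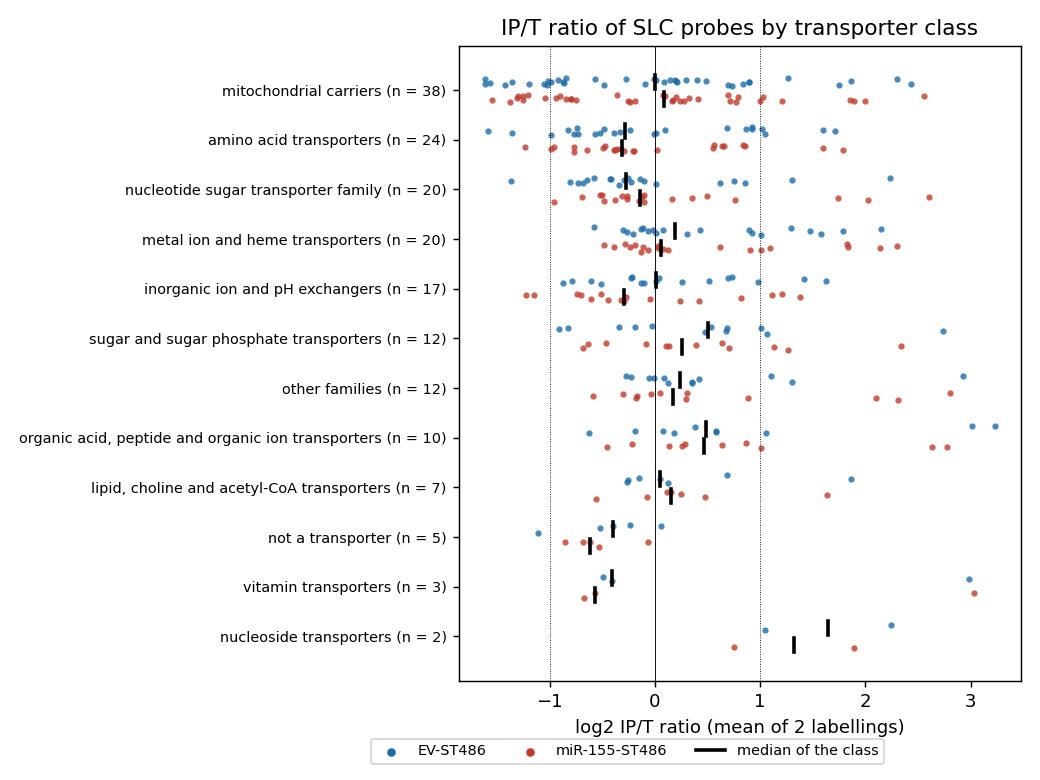
Log2 IP/T ratio (x axis, mean of the 2 labellings) of every SLC probe by transporter class (rows, with the number of probes), in blue for EV-ST486 and red for miR-155-ST486 cells, with a black bar for the median of the class. Dotted lines mark 2-fold. The mitochondrial carriers hold 9 and 8 of the 13 and 11 depleted probes, several of them of SLC25A5. Metal and heme (20 probes), sugar (12) and organic acid transporters (10) have 0, as have some smaller classes. Of all probes 9.91% and 9.82% were depleted.

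Amino acid transporters (24 probes of 20 genes) had medians of 0.822 in EV-ST486 cells and 0.808 in miR-155-ST486 cells, both below those of all SLC probes. Of their probes 2 were enriched in both vectors, against 10.7% of all probes. These were the probes of SLC7A1 (CAT1), an importer of arginine and lysine, and of SLC7A6, which forms an exchanger of cationic and neutral amino acids. SLC7A1 had log2 signals of 9.53 and 9.58 in EV T, 10.95 and 11.60 in EV IP, 9.85 and 10.08 in miR-155 T and 11.49 and 11.63 in miR-155 IP RNA, with the IP channels above the T channels. Its ratios were 3.28 (4.19 and 2.57) and 3.02 (3.44 and 2.65). SLC7A6 had 3.03 (3.38 and 2.72) and 3.44 (2.99 and 3.96), while the related SLC7A7 had 0.391 (0.409 and 0.374) and 0.425 (0.405 and 0.447). SLC7A7 was detected in 1 of the 2 labellings of each IP fraction, and with normexp and loess its ratios were 0.851 and 0.876 and the EV ratio of SLC7A6 was 1.61.

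Several carriers are known for the supply of leucine and glutamine to growing lymphocytes. SLC7A5 (LAT1), the leucine exchanger, had ratios of 0.797 and 0.816 on probe A_24_P335620 and of 0.601 and 0.800 on A_23_P3792. Its partner SLC3A2 (CD98 heavy chain) had 1.07 and 1.02 on A_23_P87216 and 0.565 and 0.722 on A_23_P75811. The glutamine transporter SLC1A5 (ASCT2) had 0.504 (0.311 and 0.815) and 0.712 (0.537 and 0.943). The glutamine transporter SLC38A1 had ratios of 0.995 and 1.01 in EV-ST486 cells and of 0.777 and 0.871 in miR-155-ST486 cells, whereas its paralog SLC38A2 had 2.03 (1.95 and 2.10) and 1.81 (1.62 and 2.03). Of these carriers SLC38A2 alone reached the threshold of 2, in EV-ST486 cells, where its ratio was 1.65 with normexp and loess. SLC43A3, a purine nucleobase transporter in a family of amino acid carriers, had 0.333 (0.294 and 0.376) with EV and 0.515 (0.547 and 0.485) with miR-155, and 0.738 and 0.744 with normexp and loess.

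Among the inorganic ion and pH exchangers (17 probes of 16 genes, medians 1.01 and 0.818), both phosphate importers of the SLC20 family were enriched. SLC20A1 had log2 signals of 12.41 and 12.55 in EV T, 14.13 and 14.08 in EV IP, 12.69 and 12.74 in miR-155 T and 14.19 and 14.01 in miR-155 IP RNA. Its ratios of 3.08 (3.17 and 2.99) and 2.60 (2.49 and 2.72) showed little spread between dyes. SLC20A2 had 2.68 (2.62 and 2.73) and 2.31 (2.22 and 2.41), and its miR-155 ratio was 1.89 with normexp and quantile normalization. The phosphate carrier SLC34A3 had 0.579 and 0.428 and the anion exchanger SLC4A2 had 0.548 and 0.452, of which the second were 0.597 and 0.883 with normexp and loess, above the threshold of depletion. The sodium, potassium and chloride cotransporter SLC12A2 had 0.910 and 0.818.

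The sugar and sugar phosphate families (12 probes of 9 genes) had medians of 1.42 and 1.20, and 1 of their probes, that of SLC37A3, was enriched in both vectors. The glucose transporter SLC2A1 (GLUT1) had 2.09 (2.33 and 1.87) with EV and 1.63 (1.72 and 1.54) with miR-155, the first of which was 1.62 with normexp and loess. Organic acid, peptide and organic ion transporters (10 probes of 8 genes) had medians of 1.40 and 1.38. In this class, next to SLC16A6, the lysosomal histidine and peptide transporter SLC15A4 had 2.08 (1.95 and 2.21) and 2.02 (1.95 and 2.09) on probe A_23_P98953. With normexp and quantile normalization these were 1.61 and 1.79, below the threshold. On its other probe, A_24_P13311, the log2 IP/T ratio was 0.58 in EV-ST486 cells (ratios of 2.04 and 1.10 in the dye orientations) and with miR-155 the ratio was 1.83 (2.07 and 1.61). The lactate transporter SLC16A1 (MCT1) was at 0.880 and 0.863. Classes follow the family number, so that the vitamin transporter SLC5A6 counts among the sugar families. Of the 3 probes in the vitamin families, that of the folate transporter SLC19A1 had 0.709 and 0.675. In the lipid, choline and acetyl-CoA class (7 probes of 5 genes), SLC33A1, the acetyl-CoA transporter of the endoplasmic reticulum, had 1.61 and 1.39 and the choline transporter SLC44A1 had 0.900 and 0.951. The nucleotide sugar family (20 probes of 16 genes, medians 0.826 and 0.910) had 2 probes enriched in both vectors, 1 each of SLC35F5 and SLC35A1. Of the 12 probes of other families 3 were enriched, those of SLC49A4 and SLC61A1. The 2 nucleoside transporters, SLC29A3 and SLC29A2 (2.07 and 1.68), were both enriched in EV-ST486 cells, SLC29A2 not with normexp and loess (1.16). For comparison, of 11 ABC transporter probes 2 were enriched in each vector (medians 0.996 and 1.03), of 16 P-type ATPase probes 1 (0.787 and 0.741), and of 2 SLCO probes 0.

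The second question was which SLC transcripts were taken up more in miR-155-ST486 than in EV-ST486 cells. To answer it, the IP/T ratio with miR-155 was divided by that with EV, which is called the miR-155/EV ratio. A value of at least 2, in a probe that was also enriched in miR-155-ST486 cells, was found for 1 of the 170 SLC probes (0.588%), against 0.436% of all probes. The mirror image, enrichment in EV-ST486 cells with a miR-155/EV ratio no higher than 0.5, was met by 0 SLC probes, against 0.125% of all probes. A share of 1 in 170 is close to that of all probes and is no result about the SLC genes as a group. The median miR-155/EV ratio was 1.00 for the members and 0.985 for all probes, and the median fold between the dye orientations was 1.23 and 1.22. Of the 170 probes 158 lay within 1.5-fold of 1, for which the share of all probes is not given here. A ratio of at least 1.5 in both dye orientations was found for 5 probes of 3 genes (2.94%, against 2.05% of all probes) and one of at most 1/1.5 for 1 probe (against 1.07%).

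The probe past the thresholds was A_23_P72850 of SLC61A1 (also MFSD5), a transporter of molybdate. Its log2 signal was 10.83 and 10.82 in EV T, 12.20 and 12.05 in EV IP, 10.74 and 10.70 in miR-155 T and 13.06 and 13.01 in miR-155 IP RNA. Both miR-155 IP channels were above both EV IP channels, and both miR-155 T channels were slightly below both EV T channels. The IP/T ratio went from 2.47 (2.33 and 2.62) in EV-ST486 to 4.97 (4.82 and 5.12) in miR-155-ST486 cells, and its miR-155/EV ratio was 2.02 (2.07 and 1.96). The second probe, A_23_P72853, had log2 signals of 9.66 and 9.54 in EV T, 10.81 and 10.60 in EV IP, 9.41 and 9.39 in miR-155 T and 11.63 and 11.37 in miR-155 IP RNA. Its miR-155 IP channels were likewise above its EV IP channels, and its IP/T ratio went from 2.15 (1.92 and 2.42) to 4.30 (3.90 and 4.73). Its miR-155/EV ratio of 2.00 (2.04 and 1.96) fell just short of the threshold. Under the 8 processing alternatives computed for single probes the ratio of the first probe stayed between 1.96 and 2.07 and that of the second between 1.88 and 2.15. Both SLC61A1 probes were already enriched in EV-ST486 cells. With normexp and loess the EV ratio of A_23_P72850 was 2.38, whereas that of A_23_P72853 was 1.60, below 2. The miR-155/EV ratio of SLC61A1 sits at the threshold in each dye orientation.

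SLC35A1, the transporter that brings CMP-sialic acid into the Golgi apparatus, came next. Probe A_23_P58912 had log2 signals of 8.07 and 7.72 in EV T, 8.73 and 8.57 in EV IP, 8.21 and 7.90 in miR-155 T and 9.78 and 9.82 in miR-155 IP RNA. The miR-155 IP fraction was the highest by about 1 log2 unit, while the T fractions of the vectors overlapped. The ratios were 1.68 (1.41 and 2.01) with EV and 3.35 (3.05 and 3.68) with miR-155. The miR-155/EV ratio was 1.99 (2.16 and 1.83), just below 2. It was detected in 1 of the 2 EV T labellings, and with normexp and quantile normalization the ratio was 1.47. Probe A_24_P406034 was detected in all 8 channels, with log2 signals of 10.51 and 10.84 in EV T, 11.86 and 12.09 in EV IP, 10.52 and 10.72 in miR-155 T and 12.60 and 12.69 in miR-155 IP RNA. The IP channels of the vectors did not overlap on this probe either. Its IP/T ratio went from 2.46 (2.99 and 2.03) to 4.08 (4.51 and 3.68), a miR-155/EV ratio of 1.66 (1.51 and 1.82).

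Both probes of SLC5A6, the sodium-dependent transporter of biotin and pantothenate, crossed an IP/T ratio of 2 between the vectors. Probe A_23_P102508 went from 1.39 (1.15 and 1.67) to 2.18 (2.09 and 2.28) and A_23_P383060 from 1.60 (1.49 and 1.71) to 2.41 (2.21 and 2.61). The miR-155/EV ratios were 1.58 (1.81 and 1.37) and 1.51 (1.48 and 1.53), and the values of the vectors did not overlap for either probe. With normexp and quantile normalization the miR-155 IP/T ratios were 1.80 and 1.72, below 2. The largest miR-155/EV ratio of all members, 2.40 (1.91 and 3.02), belonged to SLC35F6, but its IP/T ratios were 0.387 in EV-ST486 cells and 0.931 in miR-155-ST486 cells, so that it was not enriched in either (with normexp and loess 0.683 and 0.997). The channels read 8.71 and 8.87 (log2 signal) in EV T, 7.24 and 7.60 in EV IP, 8.22 and 8.02 in miR-155 T and 7.99 and 8.04 in miR-155 IP RNA. Compared with EV-ST486 cells, T was lower and IP higher. In the opposite direction, SLC67A2 (also MFSD9) had a miR-155/EV ratio of 0.520 (0.526 and 0.513) on probe A_23_P154155, from an IP/T ratio of 1.28 to 0.665. With normexp and loess the IP/T ratios of this probe were 0.923 and 0.912, so that the vectors were nearly equal. The other SLC67A2 probe had a miR-155/EV ratio of 1.16 (1.39 and 0.967), so the probes of this gene disagreed.

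**Figure D4:**
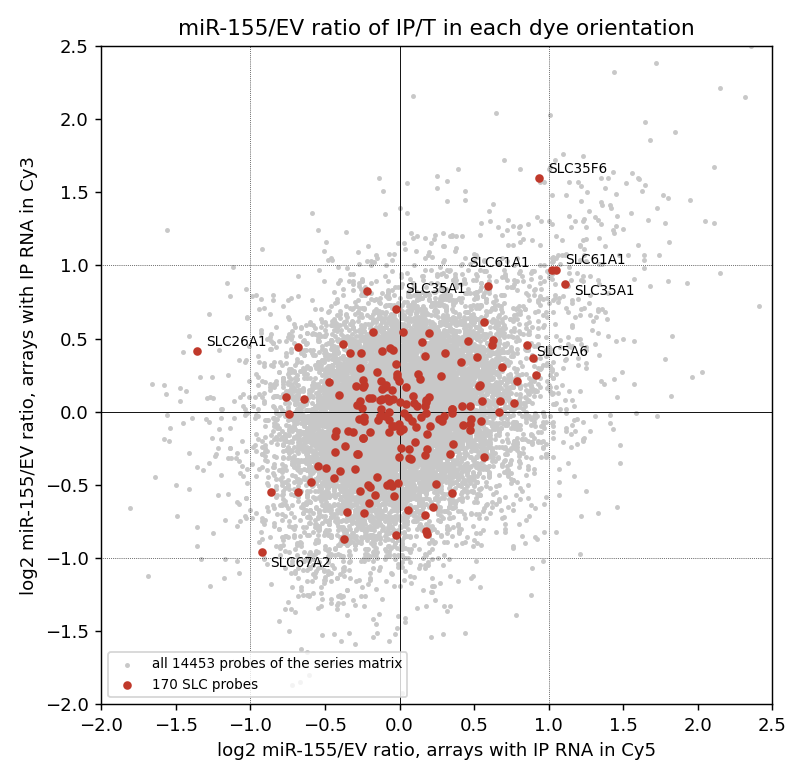
Log2 miR-155/EV ratio of the IP/T ratios in the arrays with IP RNA in Cy5 (x axis) against those with IP RNA in Cy3 (y axis) for the 170 SLC probes (red) over all 14453 probes (grey, of which 7 lie beyond the axes). Dotted lines mark 2-fold. Most SLC probes lie around the origin without following the diagonal closely, and the probes of SLC61A1, SLC35A1 and SLC35F6 lie apart in the upper right.

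The third question was whether the levels of SLC transcripts differed between the vectors within a fraction. In the T fraction 0 SLC probes were at least 2-fold higher in miR-155-ST486 cells, against 0.567% of all probes, and 1 was at most at 0.5, against 0.332%. In the IP fraction 1 was at least 2-fold higher, against 1.14%, and 1 at most at 0.5, against 0.976%. The median ratio of miR-155-ST486 to EV-ST486 cells in the T fraction was 0.984 for the members and 1.01 for all probes. Within 1.5-fold of 1 lay 162 of the 170 members, and 4.71% lay beyond it, against 8.94% of all probes.

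The probe that was lower in both fractions was A_24_P37665 of SLC26A1, an exchanger of sulfate and oxalate. Its log2 signal was 13.46 and 12.51 in EV T, 12.38 and 13.15 in EV IP, 12.03 and 11.71 in miR-155 T and 10.90 and 11.37 in miR-155 IP RNA. All 4 miR-155 channels were below all 4 EV channels. The ratio of miR-155-ST486 to EV-ST486 cells was 0.461 in the T fraction (0.371 for the Cy3 and 0.574 for the Cy5 labelling) and 0.322 in the IP fraction (0.357 for Cy3 and 0.291 for Cy5). Without quantile normalization, where the median of all probes rises by 0.45 log2 units, they were 0.648 and 0.449. IP over T was 0.859 in EV-ST486 cells and 0.600 in miR-155-ST486 cells. The other SLC26A1 probe, A_23_P349944, had a T ratio of 0.720 (0.863 for Cy3 and 0.601 for Cy5) and an IP ratio of 0.519 (0.801 for Cy3 and 0.336 for Cy5), and was detected in 1 of the 2 miR-155 IP labellings. In RNA of many cells, fewer cells with a transcript and less of it per cell cannot be told apart.

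The probe that was higher in the IP fraction was A_23_P58912 of SLC35A1, with a ratio of 2.22 (2.07 for Cy3 and 2.39 for Cy5). Its T ratio was 1.12, and it was detected in 1 of the 2 EV T labellings. Under the alternatives its IP ratio ranged from 1.715, with normexp and quantile normalization, to 3.08, without quantile normalization. The IP ratio of the other SLC35A1 probe was 1.60, below 2. At least 1.5-fold higher in IP RNA of miR-155-ST486 cells in both labellings were 8 probes of SLC35A1, SLC61A1, SLC5A6, SLC35A5 and SLC43A3 (4.71%, against 3.24% of all probes). The IP ratio of SLC43A3 was 1.77 and its T ratio 1.14. At least 1.5-fold lower in both labellings were 4 probes, those of SLC26A1, SLC34A3 (0.540), SLC2A4RG (0.631) and SLC67A2 (0.567), against 2.79% of all probes. In the T fraction 0 probes were 1.5-fold higher in both labellings, against 1.58% of all, and 2 were 1.5-fold lower, against 1.52%. The latter were the SLC26A1 probe and that of SLC32A1 (0.614), which loads GABA and glycine into synaptic vesicles.

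For 24 of the 140 genes several probes were members, and the other 116 had 1. The median fold between the highest and the lowest IP/T ratio of a gene was 1.32 in EV-ST486 cells and 1.19 in miR-155-ST486 cells. In 4 genes the probes differed by at least 2-fold. SLC25A23, another carrier of ATP-Mg and phosphate, had ratios of 1.16 and 1.01 on 2 probes and of 0.327 on A_23_P130598 in EV-ST486 cells, and of 1.18, 1.13 and 0.406 in miR-155-ST486 cells. The low probe was detected in 1 of the 2 labellings of each IP fraction, and with normexp and loess its ratios were 0.735 and 0.845. The fatty acid transport protein SLC27A1 had 1.09 and 1.19 on A_23_P131111 and 3.63 (4.30 and 3.06) and 3.10 (3.47 and 2.77) on A_24_P382489. Only the second of these was past the threshold of enrichment, and with normexp and quantile normalization its ratios were 1.84 and 1.93, below it. The glucose transporter SLC2A8 ranged from 0.531 to 1.45 in EV-ST486 cells and from 0.622 to 1.10 in miR-155-ST486 cells, and the transcription factor gene SLC2A4RG from 0.463 to 1.04 and from 0.554 to 0.956. Which transcript isoforms these probes detect was not analysed here.

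**Figure D5:**
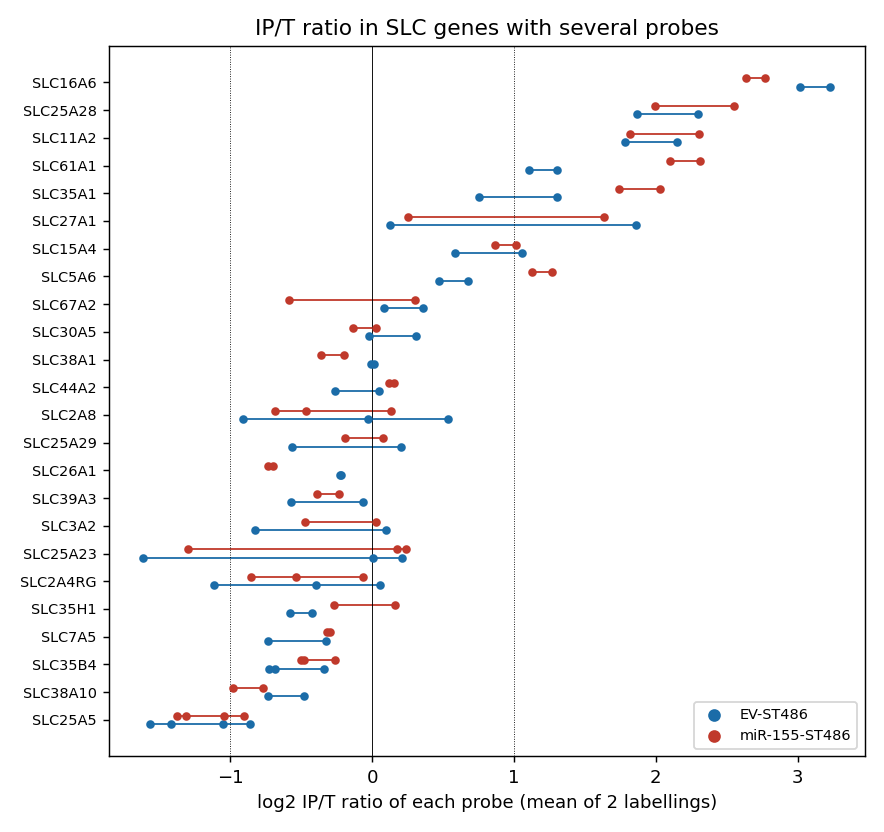
Log2 IP/T ratio of each probe (x axis, mean of the 2 labellings) in the 24 SLC genes with several member probes (rows, ordered by the mean in EV-ST486 cells), in blue for EV-ST486 and red for miR-155-ST486 cells, with a line joining the probes of a gene. Dotted lines mark 2-fold. The probes of SLC16A6 and SLC61A1 lie close together, those of SLC25A23 and SLC27A1 span more than 2-fold, and for SLC61A1, SLC35A1 and SLC5A6 the red points lie to the right of the blue ones.

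Some transporters known from lymphocytes and tumours had no member probe. Of the genes named whatever their value, the glucose transporter SLC2A3 was detected in 0 channels on either of its 2 probes and the zinc transporters SLC30A1 and SLC39A10 in 4 and 5 channels. SLC29A1 had 0 matched probes. In all, 219 SLC genes of the array were without a member probe, and their IP/T ratios are not given.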

How the data were processed

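The deposited array files hold intensities that the authors extracted with Agilent Feature Extraction (version 10.5.1.1), whose headers state background subtraction and dye normalization. The same array file stands under both samples hybridized to it, and for each sample the channel of its own dye was read. The authors also deposited log2 values made with GeneSpring by quantile normalization and filters on detection and on more than 2-fold dye differences. These fixed the 14453 probes.

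From the intensities, replicate spots were first averaged. A floor of 1 was applied before log2 was taken, the 8 channels were brought to a common distribution by quantile normalization, and the labellings were averaged. Of the deposited log2 values 99.9% lay within 0.05 of those made here, and those of the members within 0.018. Symbols came from RefSeq identifiers, which matched 23953 of 41000 probes (10409 of the 14453). The values of a few genes are not reported here. No coordinates of SLC genes are given, since the annotation is of another build than the arrays. Classes follow the family number.

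No test was run, since each condition has n = 1. Named by rule were member probes with IP/T of at least 4 in either vector, the 5 lowest in each and those past the thresholds between vectors. Genes whose probes differ at least 2-fold and a list of well-known carriers were named by rule as well. SLC5A6, SLC35F6, SLC67A2, SLC25A44, SLC25A22, SLC7A1, SLC7A6, SLC7A7, SLC20A2 and the other genes given with ratios outside these rules were named after their values were seen. The members and lists were chosen with earlier results of these data known.

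Alternatives were no quantile normalization, normexp (offset 50, local backgrounds above 500 replaced, on median signals) with quantile normalization or loess, the deposited values, detection in all 8 channels, no filter on dye differences, outlier spots left out, 1 probe a gene, arithmetic means, thresholds of 1.5 and 3, and each dye orientation. The calculation of ratios was tested on simulated data with known changes in brighter probes only and without dye or slide effects. The simulation therefore does not cover dim probes. Normexp and loess came from limma 3.58.1 (R 4.3.3), and all else was computed in Python 3.11.15 with pandas 2.3.3 and numpy 2.4.6 and drawn with matplotlib 3.10.9.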

Additional observations from a re-analysis of the deposited data

Results flagged for a closer look

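For 5 member probes (2.94%, against 2.90% of all probes) the IP/T ratio lay below 1 in both dye orientations of one vector and above 1 in both orientations of the other. The difference between the vectors was not tested. SLC35A5 had a miR-155/EV ratio of 1.41, a probe of the choline transporter family gene SLC44A2 (A_24_P10657) one of 1.30 and the glucose transporter SLC5A2 one of 1.36, each with IP/T above 1 in miR-155-ST486 cells. With IP/T above 1 in EV-ST486 cells, the SLC67A2 probe A_23_P154155 had a ratio of 0.520 and SLC67A1 one of 0.897, the latter less than the median fold between the dye orientations of a member. With normexp and loess neither lay on opposite sides of 1, with IP/T ratios of 0.923 and 0.912 for SLC67A2 and 1.04 and 1.02 for SLC67A1.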

How the results depend on the processing

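No paired analysis was possible because each condition has n = 1 and the labelling numbers are dyes of the same RNA. The counts given here are SLC probes with IP/T of at least 2 in EV-ST486 (32) and miR-155-ST486 cells (33), past the thresholds for miR-155/EV (1), and at least 2-fold different between vectors in either direction in T (1) and IP RNA (2), with the share of all probes in brackets. Apart from leaving out a dye orientation, 738 values of single probes were recomputed and 0 called values changed sign. More than 1 SD of the dye orientations was the move of 130 of 246 values with normexp and of 15 of 492 under the other settings. Without quantile normalization, which raises the median of all probes by 0.45 log2 units in T and IP RNA, the miR-155/EV, T and IP counts were 3 (0.574%), 2 (5.36%) and 10 (7.04%). Normexp with quantile normalization gave 20 (EV, 7.63%), 20 (miR-155, 7.76%), 0 (miR-155/EV, 0.214%) and 1 (IP, 0.851%), and normexp with loess 17 (EV, 6.93%), 2 (miR-155/EV, 0.353%) and 1 (IP, 0.650%). Without the filter on dye differences (239 SLC probes) miR-155/EV, T and IP counts were 2 (0.539%), 17 (4.66%) and 11 (4.505%). The IP count was 1 with detection in all 8 channels (1.57%) or 1 probe a gene (2.17%), and with arithmetic means the miR-155/EV count was 2 (0.429%). At a threshold of 1.5 the 5 counts were 52 (19.6%), 51 (20.0%), 6 (1.80%), 8 (8.94%) and 18 (11.98%). At 3 they were 17 (EV, 6.95%), 0 (miR-155/EV, 0.0969%), 0 (T, 0.0623%) and 1 (IP, 0.166%), and with the threshold met in each orientation miR-155/EV and T counts were 0 (0.291% and 0.242%). Without the arrays with IP RNA in Cy3 the 5 counts were 32 (13.9%), 35 (13.8%), 3 (0.581%), 1 (0.595%) and 9 (3.70%). Without those with IP RNA in Cy5 they were 32 (12.7%), 31 (12.45%), 0 (0.630%), 2 (3.70%) and 2 (3.13%). Ratios of probes dim in T RNA, such as SLC16A6, SLC19A2 and SLC49A4, fell most with normexp. The cause was not tested.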
